A study of Acropora tenuis with 242 samples.

Results

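The heat response of SS juveniles was measured in 15 libraries, among 146 juvenile and 96 larval libraries, of a study of the reef-building coral Acropora tenuis. SS is 1 of the 4 symbiont uptake treatments of the juveniles, and its code is not spelled out in the labels. The libraries were those of the 3 crosses that had SS juveniles at both temperatures. At Hot there were 2 libraries each of BKxBK, DRxSB and SBxSB, 6 in all, and at Ambient there were 3 of each, 9 in all. A cross is named by the codes of its parents, so that BKxBK and SBxSB join parents of 1 code and DRxSB joins parents of different codes. All 15 libraries therefore share the SS treatment and the juvenile stage. The labels used here give neither the temperatures in degrees nor a statement that libraries came from separate cultures, so that p-values measure the spread between libraries, which may be partly technical. For comparison, 10 SED libraries (4 Hot, 6 Ambient) and 10 D1 libraries (3 Hot, 7 Ambient) came from juveniles of DRxSB and SBxSB, and 18 larval libraries (9 Hot, 9 Ambient) came from BKxBK, DRxSB and SBxSB. Lists, ranges and the fit by index block also used other juvenile libraries, among them 29 of the C1 treatment, all Ambient. These included the other 7 juvenile crosses, CUxCU, CUxDR, CUxSB, DRxCU, DRxDR, LSxCU and LSxLS. RNA was measured by tag sequencing, which reads 1 stretch near the end of a transcript instead of its whole length, and reads were counted per gene model. Levels are CPM (counts per 1e+06 counts of a library) scaled by the trimmed mean of M-values, and a change is the fitted log2 ratio of Hot over Ambient within cross. The identifiers of the gene models, such as Amillepora09062-RA, are not paired with gene names in the files, so that what each model does is not known here. Each comparison is therefore illustrated by 2 models per direction at most, chosen by size of change and abundance.

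Reef corals live with photosynthetic algae inside the cells of their inner tissue layer. In Acropora the eggs and larvae of spawning species carry no algae, and juveniles take them up from the surroundings after settlement. The algae supply sugars and other products of photosynthesis, and the host changes the transcription of genes for nutrient exchange and immune recognition when algae are present. Heat can break this partnership, which is known as bleaching, and also acts on the host directly through protein damage, oxidative stress and altered metabolism.

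The 15 libraries held 228646 to 619695 counts. Hot libraries averaged 443181 counts and Ambient libraries 430520, a difference within the spread of the libraries (exact permutation test within cross, two-sided, p = 0.833). After thinning each library to 228646 counts, 13335 ± 233 gene models were detected at Hot and 13526 ± 224 at Ambient (SD, n = 6 and 9; exact permutation p = 0.137, adjusted p = 0.2055 over 3 library measures). The 100 most abundant models took 18.2% ± 0.621 of the counts at Hot and 19.1% ± 1.011 at Ambient (SD; exact permutation p = 0.119, adjusted p = 0.2055). The smallest p this permutation can give is 0.002, over 1000 arrangements. The column names carry an index number, and 5 of the 6 Hot libraries lay in a late block of it, while all 9 Ambient libraries lay in the early block. SBxSB Hot 1 was the exception, in the early block but after all 9 Ambient libraries. The labels do not say what this number stands for in the laboratory. In BKxBK and DRxSB the block and the temperature therefore cannot be told apart. Among all juveniles only 2 Ambient libraries, both D1, were late.

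**Figure D1:**
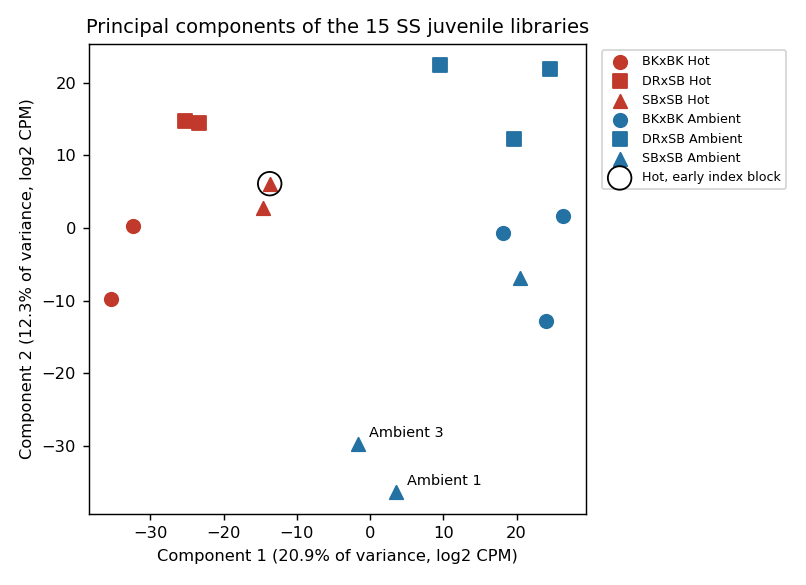
First and second principal components of log2 CPM for the 15 SS libraries (each point is 1 library, axes in log2 CPM units; colour gives the temperature, shape the cross, and the ring the only Hot library of the early index block). Hot libraries lie between -35.3 and -13.7 on component 1 and Ambient libraries between -1.68 and 26.4, and SBxSB Ambient 1 and 3 lie apart at the bottom.

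Temperature separated the libraries on the first principal component, which held 20.9% of the variance. Hot libraries had scores of -35.3 to -13.7 and Ambient libraries of -1.68 to 26.4, so that the groups did not overlap. The early Hot library, SBxSB Hot 1, scored -13.7 and its late partner, SBxSB Hot 2, scored -14.6. SBxSB Ambient 1 and 3 stood apart from the other Ambient libraries, at -36.4 and -29.7 on the second component, where the others lay between -12.8 and 22.4. These 2 libraries also had high levels of Amillepora13087-RA, a model that rose strongly with heat in larvae: 4070 and 5458 CPM, while the other 7 Ambient libraries had 679 to 1166 CPM. Results that rest on them are given below with and without both. The stage label was checked with 20 models that were abundant in Ambient larvae and near 0 in the Ambient juveniles of the other treatments, a list made after other values had been seen. Their summed level was 2.70 to 124.9 CPM in the 15 SS libraries and 14146 to 16857 CPM in Ambient larvae of the same crosses. The 2 BKxBK Hot libraries were highest among the 15, at 124.9 and 119.02 CPM. BKxBK at Ambient had 17.5 to 41.2 CPM. In DRxSB the Hot libraries also lay above the Ambient ones, at 35.2 and 42.9 CPM against 14.8 to 16.3 CPM. Both SBxSB Hot libraries lay within the range of SBxSB at Ambient, 2.70 to 28.5 CPM. The part of these differences in the results was not tested. No marker of the SS treatment itself is known from the labels, so that label could not be checked.

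The first comparison asked which gene models changed in SS juveniles at Hot. Of 7835 models tested, 515 changed (6.57%; edgeR quasi-likelihood test, false discovery rate 0.05). Of these, 252 rose (3.22% of those tested) and the other 3.36% fell, and the fitted change of all tested models had a median of -0.02 on the log2 scale. The median size of the falls was 1.10 on the log2 scale, and that of the rises 0.81. At least 2-fold changes numbered 73 up and 150 down (2.85% of models in all), at least 4-fold changes 8 up and 47 down, and at least 16-fold changes 1 up and 15 down. The models that rose took 7.08% to 8.95% of all counts in Hot libraries and 3.997% to 5.56% in Ambient libraries. Those that fell took 2.54% to 3.42% at Hot and 4.604% to 6.28% at Ambient. Hot and Ambient libraries did not overlap in any of the 3 crosses for 116 of the models that rose and for 112 of those that fell. Among all 7835 models, 1.88% were separated upward and 1.63% downward in this way. In RNA of whole samples, fewer cells of a type and less RNA per cell cannot be told apart.

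Amillepora04293-RA was not counted at all in the 6 Hot libraries, with 0 of 2659086 counts, against 200 of 3874687 counts in the 9 Ambient libraries. At Ambient its levels were 47.1, 111 and 69.4 CPM in BKxBK, 67.8, 30.8 and 41.5 CPM in DRxSB, and 49.2, 18.9 and 22.5 CPM in SBxSB. Every Ambient library held it and no Hot library did. Set against a floor of 3 counts over the Hot group, its rate was at least 45.8-fold lower at Hot, and the test gave an adjusted p of 2.00e-05 (edgeR). Amillepora09062-RA was close to absent at Hot too. Its levels at Hot were 0 and 8.50 CPM in BKxBK, 3.36 and 0 CPM in DRxSB and 0 and 2.06 CPM in SBxSB. At Ambient it stood at 106, 107 and 111 CPM in BKxBK, 304, 139 and 116 CPM in DRxSB, and 67.3, 110.5 and 88.3 CPM in SBxSB. All Ambient libraries were far above all Hot ones. Summed over libraries it had 5 counts at Hot and 486 at Ambient, a 66.7-fold lower rate (exact 95% counting interval 28.4 to 206-fold, counting error only), and a fitted log2 change of -5.92 (SE 0.45, adjusted p = 9.89e-08, edgeR).

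Amillepora03350-RA led the rises. It had 107 and 34.0 CPM at Hot in BKxBK, 117 and 95.4 CPM in DRxSB, and 411 and 202 CPM in SBxSB. At Ambient it had 8.84, 21.4 and 4.21 CPM in BKxBK, 27.1, 65.2 and 8.89 CPM in DRxSB, and 5.18, 48.5 and 18.8 CPM in SBxSB. The Hot libraries were above the Ambient libraries of their own cross in each case, but BKxBK Hot 2 lay below the highest Ambient libraries of the other 2 crosses. The fitted change was 6.05-fold (log2 2.598, SE 0.42, adjusted p = 0.000762, edgeR). Amillepora04679-RA had 33.5 and 68.0 CPM at Hot in BKxBK, 47.0 and 88.2 CPM in DRxSB, and 55.5 and 26.7 CPM in SBxSB. At Ambient it had 20.6, 5.85 and 4.21 CPM in BKxBK, 2.71, 19.9 and 5.92 CPM in DRxSB, and 7.76, 2.70 and 16.9 CPM in SBxSB. No Hot library overlapped any Ambient library. Its change was 5.05-fold (log2 2.34, SE 0.39, adjusted p = 0.00108, edgeR). These 4 models were chosen for the largest changes among those separated in every cross, so their separation is part of the choice.

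**Figure D2:**
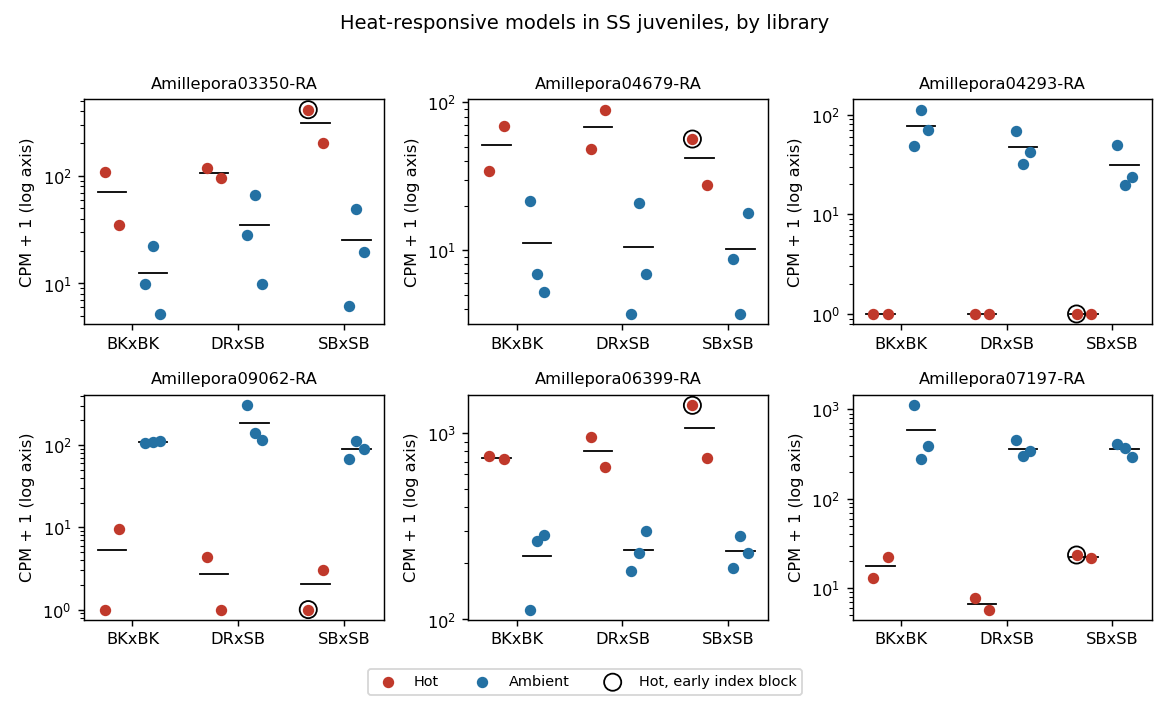
Level of 6 gene models in each SS library (CPM + 1 on a log axis), by cross, with Hot in red to the left of Ambient in blue; black lines are group means, n = 2 Hot and 3 Ambient per cross, and the ring marks the early Hot library. In all 6 panels the Hot and Ambient libraries of a cross do not overlap, and Amillepora04293-RA is at 0 in every Hot library.

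The next comparison asked whether the crosses responded alike. In BKxBK 266 of 8847 models were called (3.01%), 154 of them up and 112 down. In DRxSB 101 were called (1.14%), 31 up and 70 down, and in SBxSB 74 (0.836%), 7 up and 67 down. The difference of the response between crosses, tested itself, gave 0 calls (0% of 8847; edgeR), with 708 models at an unadjusted p under 0.05 and 30 calls by the DESeq2 likelihood ratio test. The unequal counts therefore do not show that the crosses differed. No model was called in opposite directions in 2 crosses. Called in all 3 crosses were 27 models, 3 up and 24 down. Among the 515 models called over the 3 crosses, the median change of the risers was 1.03 in BKxBK, 0.75 in DRxSB and 0.60 in SBxSB on the log2 scale. For the fallers it was -1.23, -1.12 and -0.88 in the same order. Since these models were called on the same libraries, their sign in single crosses is no test.

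A cross that took no part in the calling gives such a test of Hot against Ambient libraries. In BKxBK and DRxSB all Hot libraries were late and all Ambient ones early, so temperature and index block cannot be told apart in their agreement. Of 103 models called in DRxSB and SBxSB, 97.1% moved the same way in BKxBK, against 63.9% of all tested models. Of 164 called without DRxSB, 95.7% moved the same way in DRxSB, against 65.4% of all. For SBxSB the share was lower, 73.5% of 589 models, against 60.6% of all. The 589 models called in the other 2 crosses had small median changes in SBxSB, 0.34 for the risers and -0.38 for the fallers on the log2 scale. The early Hot library of SBxSB showed a median of 0.33 for the risers and the late one 0.33, and for the fallers the medians were -0.34 in the early and -0.39 in the late library. Without SBxSB Ambient 1 and 3, the comparison over all crosses gave 836 calls of 8071 (10.4%), 431 up and 405 down, while SBxSB alone, then with 1 Ambient library, gave 21. Across the 8847 models the log2 changes correlated at r = 0.485 between BKxBK and DRxSB, at 0.193 between BKxBK and SBxSB, and at 0.262 between DRxSB and SBxSB, given here as descriptions across models.

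Among the models that fell at Hot were those that juveniles of the SED treatment also held at low levels. A list of 24 models was made without any SS library: those called at least 8-fold lower in SED than in C1 juveniles at Ambient (28 and 29 libraries; 29.6% of 9196 models were called in either direction). At Hot their summed level was 174 and 582 CPM in BKxBK, 317 and 252.7 CPM in DRxSB, and 235.7 and 96.7 CPM in SBxSB. At Ambient it was 2127, 3269 and 2369 CPM in BKxBK, 3931, 3281 and 2918 CPM in DRxSB, and 2844, 2526 and 1897 CPM in SBxSB. The Hot and Ambient libraries lay far apart in every cross. Averaged over the 6 Hot libraries, the sum was 11.4-fold lower than in the Ambient libraries of the cross (log2 difference -3.52 ± 0.82, SD, n = 6). The size depends on the list: with models at least 4-fold lower in SED the log2 difference was -1.55, and of the 30 such models tested 25 were called lower and 2 higher. Of the 24 models, all had a lower mean level at Hot. The low-count filter kept 18 of them, which can pass through their Ambient levels alone, and 17 of these were called lower and 0 higher, where 3.36% of all models were called lower. Their median log2 change was -4.36, against -0.02 over all models. The list includes Amillepora04293-RA and Amillepora09062-RA, described above, and Amillepora04961-RA and Amillepora24222-RA, described below. The falls of these models and of the list are therefore not separate results.

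**Figure D3:**
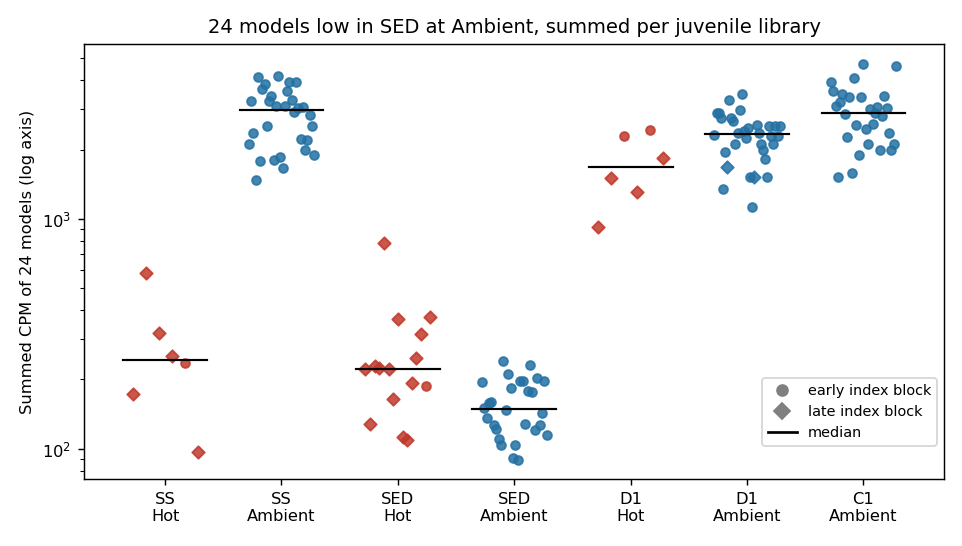
Summed level of 24 gene models that are low in SED juveniles (CPM on a log axis), in each juvenile library of all crosses, by symbiont treatment and temperature; circles are early and diamonds late index numbers, and black lines are medians. Hot SS libraries, at 96.7 to 582 CPM, lie among the SED libraries at 89.6 to 782 CPM, while Ambient SS libraries, at 1471 to 4196 CPM, lie among Ambient C1 and D1 libraries.

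The level in Hot SS libraries lay in the range of SED juveniles. The sum had a median of 244.2 CPM in Hot SS, 223.0 CPM in 15 Hot SED libraries (109 to 782 CPM) and 148 CPM in 28 Ambient SED libraries (89.6 to 240 CPM). It had a median of 2844 CPM in the 9 Ambient SS libraries, 2339 CPM in 32 Ambient D1 libraries (1121 to 3499 CPM) and 2890 CPM in 29 Ambient C1 libraries (1522 to 4729 CPM). Heated D1 juveniles had 918 to 2434 CPM in 6 libraries. Larvae of the 3 crosses had 448 to 588 CPM at Hot and 273.65 to 449.8 CPM at Ambient. By index block, the 2 late Ambient D1 libraries had 1520 and 1680 CPM, the 4 late Hot D1 libraries 918 to 1848 CPM, the 2 early Hot D1 libraries 2294 and 2434 CPM, and the early Hot SS library, SBxSB Hot 1, had 235.7 CPM. In Hot D1 the late libraries thus lay below the early ones, though above all Hot SS libraries of either block. The most abundant of the 24 in SS at Ambient was Amillepora24890-RA. It had 6.17 to 93.5 CPM at Hot (median 12.6, n = 6) and 296.6 to 862 CPM at Ambient (median 520, n = 9), and it fell 23.0-fold (log2 -4.52, SE 0.44, adjusted p = 1.87e-06, edgeR). Amillepora01594-RA had 39.1 to 97.8 CPM at Hot (median 62.6) and 144 to 1247 CPM at Ambient (median 377). It fell 7.15-fold (log2 -2.84, SE 0.37, adjusted p = 6.21e-05, edgeR). Neither model overlapped between the temperatures. In heated D1 juveniles they had 183.7 to 391 CPM and 116.4 to 521 CPM.

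Further lists came from the 7 crosses that had no heated SS juveniles, where SED was set against SS at Ambient (801 of 7987 models called, 10%). Of 97 models at least 2-fold lower in SED than in SS there, 90 were tested for heat in SS. Of these 90, 54 were called lower at Hot and 2 higher, where 3.36% of all tested models were called lower and 3.22% higher, with a median log2 change of -1.58. Of 25 models at least 2-fold higher in SED, 14 were tested, and 2 were called higher and 2 lower, against the same shares, with a median of -0.05. Without a fold limit, 88 of the models called lower at Hot (34.2%) were also lower in SED, where 6.30% of all 7465 models were, and they made up 18.7% of the 470 models lower in SED. Another 15 models called lower at Hot were higher in SED. Of the 245 models called higher at Hot, 13 were higher in SED (5.31%, near the 4.05% of all models) and 20 were lower. Of 18 models at least 4-fold higher in SED than in C1, 12 were tested for heat in SS, and 10 were called lower and 0 higher, where 3.36% of all tested models were called lower and 3.22% higher, with a median log2 change of -1.77. These 18 were examined after other results had been seen.

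The response of SS juveniles was set against that of SED and D1 juveniles in DRxSB and SBxSB, the crosses with all 3 treatments at both temperatures. In 10463 models, heat changed 134 in SS (1.28%; 44 up, 90 down), 300 in SED (2.87%; 222 up, 78 down) and 67 in D1 (0.640%; 54 up, 13 down; edgeR). Falls outnumbered rises in SS, and rises outnumbered falls in SED and D1. Called in both SS and SED were 12 rises and 4 falls. These were 27.3% of the 44 rises and 4.44% of the 90 falls in SS, and 5.41% of the 222 rises and 5.13% of the 78 falls in SED. Of all models, 2.12% rose and 0.745% fell in SED, and 0.421% rose and 0.860% fell in SS. Called in both SS and D1 were 3 rises and 2 falls, 6.82% and 2.22% of those in SS, and 5.56% and 15.4% of those in D1. Of all models, 0.516% rose and 0.124% fell in D1. Of the 24 models low in SED, 23 were tested. Heat in SS lowered 17 of them, heat in SED lowered 0 and raised 1, and heat in D1 changed 0. Their median log2 change was -4.42 in SS, -0.16 in SED and -0.53 in D1. The Ambient SED libraries also served to choose these models, so that their change in SED is no independent measure.

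**Figure D4:**
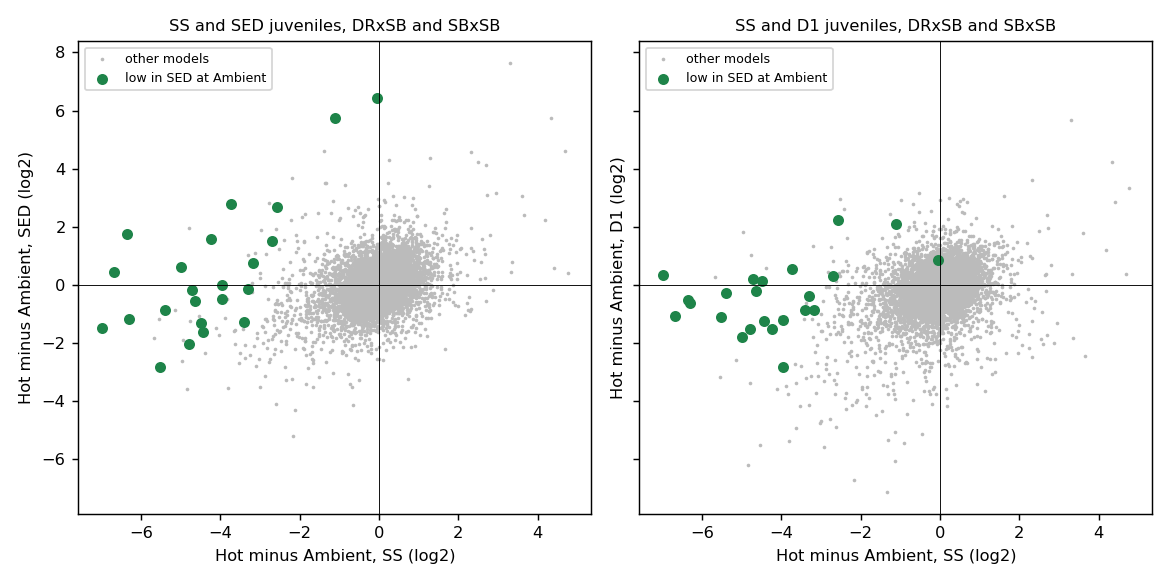
Fitted log2 change with heat in SS juveniles (horizontal) against that in SED (left) and D1 juveniles (right), in DRxSB and SBxSB; each point is 1 of 10431 gene models whose mean log2 CPM reaches 3, and green points are the 23 models low in SED that were tested. The green points lie at -6.99 to -0.05 in SS and spread around 0 in the other treatments.

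The difference of the response itself was called for 12 models between SS and SED (0.115%), all more negative in SS, with 736 models at an unadjusted p under 0.05. Of the 12, 5 were among the 24 low in SED and 11 among the 478 lower in SED than in SS in the other crosses. Among the 10463 models tested, 23 and 478 were on these lists. Models near 0 in SED at Ambient have little room to fall there, so a fall in SS alone makes the difference negative. The shared direction of the 12 is therefore no independent result. Amillepora04961-RA had the largest difference. It had 1.68 and 0 CPM at Hot in DRxSB and 0 and 4.11 CPM in SBxSB in SS, against 217, 184.6 and 68.1 CPM at Ambient in DRxSB and 111, 170 and 65.7 CPM in SBxSB. In SED it stood at 0 to 13.5 CPM at Hot (n = 4) and 0 to 6.76 CPM at Ambient (n = 6). Its log2 change was -6.35 in SS (SE 0.64), 1.76 in SED (SE 0.96) and -0.53 in D1 (SE 0.39), and the difference SS minus SED was -8.11 (SE 1.22, adjusted p = 0.000926, edgeR). Without SBxSB Hot 2 of SED the difference was -5.71 and was no longer called, and likewise without DRxSB Hot 2 of SED, at -7.76. Amillepora01747-RA had a difference of -5.89 (SE 1.22, adjusted p = 0.0496, edgeR). In SS it had 16.8 and 2.38 CPM at Hot in DRxSB and 5.20 and 2.06 CPM in SBxSB, and 8.13 to 70.6 CPM at Ambient. In SED it had 5.43 to 27.0 CPM at Hot and 0 to 6.93 CPM at Ambient. The call was lost in 19 of the 20 fits that left out 1 library. No model was called more positive in SS than in SED.

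Between SS and D1 the response differed for 31 models (0.296%), 29 more negative and 2 more positive in SS. Of the 31, 12 were among the 24 low in SED, of which 23 were among the 10463 models tested. Amillepora04293-RA was at 0 CPM in the 4 Hot SS libraries of these crosses and at 18.9 to 67.8 CPM in the 6 Ambient ones, while D1 had 19.4 to 23.9 CPM at Hot (n = 3) and 10.1 to 22.4 CPM at Ambient (n = 7). The difference of its responses was called at an adjusted p of 0.000334 (edgeR). The other 3 models had larger fitted changes in D1, opposite in sign to those in SS, but none of these D1 changes was called. Their adjusted p in D1 was 0.163 for Amillepora06399-RA, 0.379 for Amillepora07197-RA and 0.0783 for Amillepora04321-RA (edgeR). For Amillepora04321-RA the change in SS was not called either (log2 1.26, adjusted p = 0.258, edgeR). Amillepora06399-RA rose in SS, with 656 to 1409 CPM at Hot (n = 4) and 182 to 299 CPM at Ambient (n = 6), a log2 change of 1.96 (SE 0.43). In D1 it had 206 to 231 CPM at Hot and 206 to 1006 CPM at Ambient, a change of -1.60 (SE 0.54). In SED it had 304 to 1737.5 CPM at Hot and 128.4 to 550 CPM at Ambient, a change of 1.71 in the direction of SS. The difference SS minus D1 was 3.56 (SE 0.71, adjusted p = 0.0171, edgeR). Amillepora07197-RA fell in SS, with 4.77 to 22.5 CPM at Hot and 289.3 to 450.04 CPM at Ambient (log2 change -4.97, SE 1.21). In D1 it had 318 to 570 CPM at Hot and 8.94 to 670 CPM at Ambient (1.81, SE 0.89), and the difference was -6.79 (SE 1.499, adjusted p = 0.0378, edgeR). Amillepora04321-RA had 218 to 357 CPM at Hot and 36.2 to 178 CPM at Ambient in SS, and 43.5 to 83.8 CPM at Hot and 97.8 to 540 CPM at Ambient in D1. Its difference was 3.80 (SE 0.83, adjusted p = 0.0370, edgeR). Leaving out 1 library ended the call in 4 of 19 fits for Amillepora06399-RA and in 12 of 19 each for Amillepora07197-RA and Amillepora04321-RA.

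These 3 models also differed between index blocks within Ambient D1 juveniles. Amillepora06399-RA had 160 and 206 CPM in the 2 late Ambient D1 libraries and 280 to 1187 CPM in the 30 early ones. For Amillepora07197-RA the values were 236.02 and 670 CPM in the late and 0 to 208 CPM in the early Ambient D1 libraries, and for Amillepora04321-RA 24.3 and 97.8 CPM in the late and 138 to 669 CPM in the early ones. The late Ambient D1 libraries thus lay outside the range of the early ones in all 3, on the side of the heated D1 libraries. The 2 early Hot D1 libraries lay on that side too, at 203 and 212 CPM of Amillepora06399-RA, 318 and 691 CPM of Amillepora07197-RA, and 43.5 and 84.9 CPM of Amillepora04321-RA. The early Hot SS library went with the late Hot SS libraries, at 1409 CPM of Amillepora06399-RA and 22.5 CPM of Amillepora07197-RA. In SED, Amillepora07197-RA had 322.8 CPM in the only early Hot library and 7.50 to 186.35 CPM in the 14 late ones.

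The index block was examined in a fit of 69 juvenile libraries, from all combinations of cross and symbiont treatment with both temperatures. Without a term for the block, that fit called 558 models for heat in SS. With the block as a term it called 70 of 9764 (0.717%), 16 up and 54 down, of which 64 were among the 515. The term itself gave 0 calls (0% of 9764; edgeR; 893 models at an unadjusted p under 0.05). It can be told from heat only through the 2 late Ambient D1 libraries and the early Hot libraries (1 SS, 1 SED and 2 D1). It also assumes the same block effect in all treatments, so 0 calls do not show that the block had no effect. In the fit with the block, 16 of the 23 tested models low in SED were called lower and 0 higher, with a median log2 change of -3.33. Amillepora09062-RA and Amillepora04293-RA, both among the models low in SED, and Amillepora03350-RA were still called. The call of Amillepora04679-RA was lost (log2 change 1.74). That model had 40.1 and 60.7 CPM in the late Ambient D1 libraries and 0 to 39.2 CPM in the early ones. With SBxSB Hot 1 as the only Hot library against the 9 Ambient ones, 11 models were called, 3 up and 8 down, in a fit where the Ambient libraries alone give the spread and the lone Hot library is assumed to vary like them. With the 5 late Hot libraries alone, 467 were called, 237 up and 230 down.

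Larvae of the same crosses, with 9 libraries per temperature, gave more calls. The larval libraries of a cross and temperature share a title number, so their spread may be technical. Larval SDs and p-values may then be too small, and the numbers of calls in the 2 stages are not alike in kind. By their column names, reads of the 2 stages may also have been processed differently. Of 9577 models, 4690 were called in larvae (49.0%; 2234 up, 2456 down; edgeR), 475 of them at least 2-fold up and 487 at least 2-fold down (10% of models). Among 7450 models tested in both stages, 239 rose in SS juveniles, and 154 of these also rose in larvae (64.4%, where 25.9% of all models rose) while 17 fell. The 154 were 7.99% of the models that rose in larvae. Of 217 models that fell in SS juveniles, 87 fell in larvae (40.1%, where 25.2% of all did) and 43 rose. The 87 were 4.63% of the larval fallers. Without SBxSB Ambient 1 and 3, 404 tested models rose in SS juveniles, 264 of them up and 33 down in larvae, and 338 fell, 178 of them down and 49 up in larvae. The log2 changes of the 2 stages correlated at r = 0.241 across the 7450 models, given as a description.

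**Figure D5:**
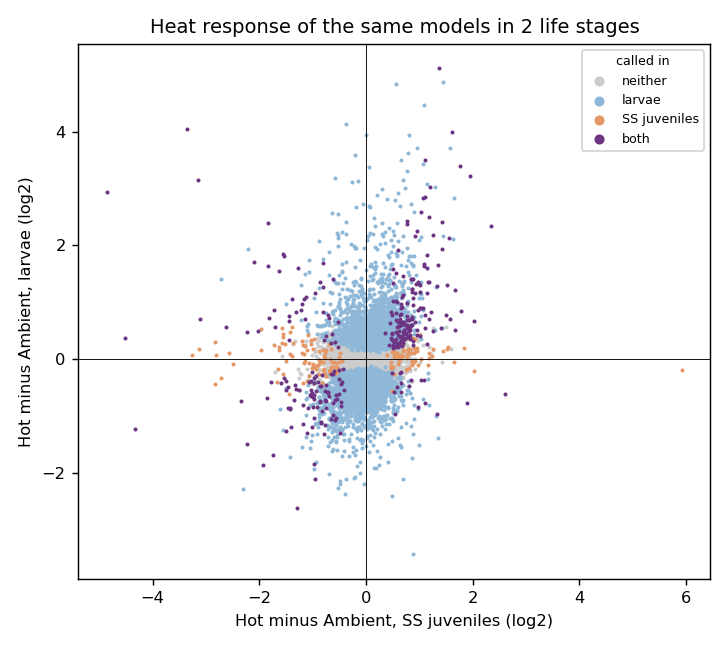
Fitted log2 change with heat in SS juveniles (horizontal) and in larvae of BKxBK, DRxSB and SBxSB (vertical) for 7450 gene models tested in both; colours show where a model was called at a false discovery rate of 0.05. Most models called in both stages lie at the upper right (154) and lower left (87), with 43 at the upper left and 17 at the lower right.

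Some models were called in the same direction in both stages. Amillepora13447-RA had 102.5 to 259 CPM at Hot and 23.5 to 109.6 CPM at Ambient in SS juveniles, with only DRxSB Ambient 3, at 109.6 CPM, above the lowest Hot library. It rose 3.86-fold in SS juveniles (log2 1.95, SE 0.27, adjusted p = 0.000119, edgeR) and 9.33-fold in larvae, which had 472 ± 156.9 CPM at Hot and 48.0 ± 10.02 CPM at Ambient (SD, n = 9 each). The rise was smaller in SS juveniles than in larvae by the test of the difference (log2 -1.26, SE 0.28, adjusted p = 0.00132, edgeR). With the index block as a term its call in SS was lost (log2 change 1.14), and among Ambient D1 juveniles it had 153.05 and 284.6 CPM in the 2 late libraries and 14.2 to 74.0 CPM in the 30 early ones. Amillepora04679-RA, described above, rose 5.04-fold in larvae, with 64.0 ± 11.1 CPM at Hot and 12.6 ± 5.99 CPM at Ambient. Among the shared falls, Amillepora22256-RA had 8.67 to 26.2 CPM at Hot and 18.1 to 84.0 CPM at Ambient in SS juveniles. It fell 3.34-fold there (log2 -1.74, SE 0.32, adjusted p = 0.00256, edgeR) and 3.20-fold in larvae. Amillepora33410-RA fell 3.83-fold in SS juveniles (log2 -1.94, SE 0.56, adjusted p = 0.0449, edgeR), a call lost in 11 of the 15 fits without 1 library, and 3.64-fold in larvae. By cross its log2 change was -5.10 in BKxBK, which was called, and -1.95 in DRxSB and -0.51 in SBxSB, which were not (edgeR). In SBxSB it had 104 and 57.6 CPM at Hot, against 15.5, 253 and 78.9 CPM at Ambient. The difference between crosses was not called for it (adjusted p = 0.448, edgeR).

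Other models differed between the stages. The difference of the heat response, SS juveniles minus larvae, was called for 1884 of 11820 models (15.9%; edgeR), 855 more positive and 1029 more negative in SS juveniles. That fit shares the spread of a model over both stages. Its SEs and p-values, also those of Amillepora13447-RA above, may therefore be too small for the juveniles. For Amillepora18145-RA the SE was 0.81 for the difference and 0.84 for heat in SS alone. Amillepora24222-RA fell 10.2-fold in SS juveniles, with 0 to 38.3 CPM at Hot and 61.0 to 132 CPM at Ambient, and rose 16.4-fold in larvae, with 31.4 ± 12.3 CPM at Hot and 1.78 ± 1.98 CPM at Ambient (SD, n = 9). The difference was -8.41 on the log2 scale (SE 0.48, adjusted p = 2.16e-15, edgeR). Amillepora07197-RA fell 28.9-fold in SS juveniles, with 4.77 to 22.5 CPM at Hot and 276.8 to 1111 CPM at Ambient, and rose 7.65-fold in larvae, with 154.75 ± 79.8 CPM at Hot and 19.0 ± 9.49 CPM at Ambient (difference -7.95, SE 0.38, adjusted p = 2.77e-17, edgeR). Amillepora18145-RA had the most positive difference, 5.79 (SE 0.81, adjusted p = 2.03e-06, edgeR). It had 210.1 and 332 CPM at Hot in BKxBK, 0 and 117 CPM in DRxSB, and 3.47 and 49.4 CPM in SBxSB, against 0 to 4.21 CPM at Ambient. Without DRxSB Hot 2 the difference was 3.12 and was not called. Amillepora19310-RA had 1.68 to 15.6 CPM at Hot and 0 to 5.92 CPM at Ambient in SS juveniles, and 397 ± 184.5 CPM at Hot and 897 ± 307 CPM at Ambient in larvae (difference 4.80, SE 0.74, adjusted p = 1.4955e-05, edgeR). It was under the low-count limit of the heat test in SS and entered the stage test through its larval levels. In SS it had 22 counts at Hot and 3 at Ambient, and the temperatures overlapped within DRxSB.

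The models that changed at least 2-fold with heat in larvae were then followed in SS juveniles. Of 475 larval risers 346 were tested in SS, and 53 were called up and 18 down, where 3.22% of all models were called up and 3.36% down, with a median log2 change of 0.32 against -0.02 over all models. Of 487 larval fallers 240 were tested, and 0 were called up and 21 down, against the same shares, with a median of -0.32. Without SBxSB Ambient 1 and 3, 103 of 354 tested risers were called up and 17 down (median 0.52), and 2 of 253 tested fallers were called up and 43 down (median -0.42), where 5.34% of all models were called up and 5.02% down. By cross the median of the risers was 0.81 in BKxBK, 0.46 in DRxSB and -0.07 in SBxSB, and that of the fallers was -0.51, -0.40 and -0.04. Without SBxSB Ambient 1 and 3 the SBxSB medians were 0.31 for the risers and -0.24 for the fallers, but that fit has 1 Ambient library in SBxSB and a changed set of tested models.

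Models that led the heat comparisons over all juveniles and larvae had the following levels in the SS crosses, and the difference of the response between crosses was not called for Amillepora13087-RA, Amillepora13086-RA or Amillepora02878-RA (adjusted p of 0.351, 0.501 and 0.502, edgeR). For Amillepora12232-RA and Amillepora13084-RA, at 0 in whole groups, that test gives no usable value. Amillepora13087-RA had 2004 and 4722 CPM at Hot in BKxBK, 3321 and 3149 CPM in DRxSB, and 3701 and 2543 CPM in SBxSB, against 679 to 1166 CPM in 7 Ambient libraries and 4070 and 5458 CPM in SBxSB Ambient 1 and 3. Its log2 change was 1.37 over the crosses (SE 0.37, adjusted p = 0.0330, edgeR), and it was 5.11 in larvae. In SBxSB alone it was -0.20 and was not called, and the call over the crosses was lost in 9 of the 15 fits without 1 library. Amillepora13086-RA, at 6.17 to 122.5 CPM at Hot and 0 to 71.4 CPM at Ambient, did not pass (adjusted p = 0.158, edgeR). Amillepora02878-RA had 203 and 90.5 CPM at Hot in SBxSB and 41.9 and 33.4 CPM in DRxSB, but 3.05 and 4.25 CPM in BKxBK. At Ambient it had 0 to 15.6 CPM in the 9 libraries. Its change was 8.04-fold (log2 3.01, SE 0.63, adjusted p = 0.00744, edgeR). Amillepora12232-RA, at 2755 ± 435 CPM at Hot and 5750 ± 198.7 CPM at Ambient in larvae, had 54.8 and 29.8 CPM at Hot in BKxBK and 10.1 and 9.54 CPM in DRxSB, and was at 0 in both Hot SBxSB libraries and in all 9 Ambient libraries. Amillepora13084-RA was at 0 in all 6 Hot libraries and in 5 Ambient ones, and its Ambient counts lay mostly in SBxSB Ambient 1 and 3, at 69.9 and 116 CPM. Amillepora07953-RA had 0 to 2.06 CPM at Hot and 0 to 52.6 CPM at Ambient. Both were under the low-count limit of the test.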

How the data were processed

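Per the labels' protocols, RNA of juvenile and larval tissue was extracted with the RNAqueous kit and sequenced by tag-based RNA-seq. The authors deposited raw read counts per gene model, in 1 table of juveniles (25349 models) and 1 of larvae (25142 models), with Bowtie2 2.2.9 named in the submitters' processing notes. For the counting step, strand, duplicate removal and reference, nothing is given in the sources used here beyond the column names, and closely similar models may share reads. The juvenile column names carry the word host and the larval ones do not, so reads of the 2 stages may have been processed differently. Groups came from the labels, and 78 larval columns of other crosses or of the Pre samples were not used.

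Tests on the counts used edgeR 4.0.16 under R 4.3.3 (quasi-likelihood fit, trimmed mean of M-values, filterByExpr, Benjamini-Hochberg adjustment over all models tested, false discovery rate 0.05). Heat in SS was fitted as cross plus temperature on 15 libraries, responses per cross on group means of the same libraries, SS against SED and D1 on 30 libraries, and SS against larvae on 33. SE is the log2 change divided by the root of the F statistic. Depth was 228646 to 619695 counts per SS library, and a floor of 3 counts and the exact 95% intervals cover counting error only. No pair of replicates of a group agreed within sampling noise. Library measures were compared by exact permutation within cross. DESeq2 1.42.0, no filter, other scalings, left-out libraries and crosses, and fits by index block served as alternatives. The fits of heat in SS and of heat in larvae were tried on simulated data, and the other fits were not. Named models were the 2 largest changes per direction among called models whose mean log2 CPM reached 3, for heat in SS also separated in all 3 crosses, for models shared with larvae ranked by the smaller change, the 2 most abundant models low in SED, and models leading heat comparisons over all juveniles or larvae. The libraries, lists and models were chosen with earlier results of these data known.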

Additional observations from a re-analysis of the deposited data

Results flagged for a closer look

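Groups of named models were searched for 1 library apart from the rest, on untransformed CPM pooled over the crosses. The limit used flags about 1 in 20 groups of normally distributed values, a rate that need not hold here. In 9 of 48 groups 1 library lay apart. At Hot these were BKxBK Hot 2 for Amillepora04961-RA (12.8 CPM, the others 0 to 4.11) and for Amillepora24890-RA (93.5 CPM, the others 6.17 to 29.5), and DRxSB Hot 1 for Amillepora01747-RA (16.8 CPM, the others 0 to 5.20). At Ambient they were DRxSB Ambient 1 for Amillepora09062-RA (304 CPM), BKxBK Ambient 1 for Amillepora07197-RA (1111 CPM), BKxBK Ambient 2 for Amillepora07953-RA (52.6 CPM) and SBxSB Ambient 3 for Amillepora13086-RA (71.4 CPM). DRxSB Ambient 3 lay apart for 2 models, Amillepora13447-RA (109.6 CPM) and Amillepora01594-RA (1247 CPM).

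The heat response differed between SS and another group, by the test of the difference, for these named models on the log2 scale. Between SS and SED the difference was -8.11 for Amillepora04961-RA and -5.89 for Amillepora01747-RA. Between SS and D1 it was 3.80 for Amillepora04321-RA, 3.56 for Amillepora06399-RA, -6.79 for Amillepora07197-RA and -7.34 for Amillepora04293-RA, where the last fitted value rests on a Hot group at 0 and has no fixed size. Between SS juveniles and larvae it was 5.79 for Amillepora18145-RA, 4.80 for Amillepora19310-RA, -8.41 for Amillepora24222-RA and -7.95 for Amillepora07197-RA. The value of Amillepora19310-RA rests on 22 Hot and 3 Ambient counts in SS juveniles.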

How the results depend on the processing

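The 515 calls for heat in SS juveniles were 889 with no low-count filter, 223 with a 2-fold limit, 103 without BKxBK, 164 without DRxSB, 836 without SBxSB Ambient 1 and 3, 70 with the index block as a term and 11 in the early block alone, where 1 Hot library is assumed to vary like the Ambient ones. Leaving out 1 library gave 299 (without BKxBK Hot 1) to 675 (without SBxSB Ambient 3), with 319 to 334 without BKxBK Hot 2, DRxSB Hot 1 or DRxSB Hot 2. The difference between crosses, 0 calls, was 2.9e+02 (rounded to 2 digits) with no filter, 30 by the DESeq2 likelihood ratio test, 1 without SBxSB Ambient 1 and 3, and 0 to 100 without 1 library (100 without SBxSB Ambient 2). Fitted on its own 5 libraries, BKxBK gave 515 calls and SBxSB 22, and SBxSB without Ambient 1 and 3 gave 21. Without 1 library the counts were 27 to 163 in BKxBK, 17 to 126 in DRxSB and 9 to 206 in SBxSB. For SS minus SED, 12 calls became 125 with no filter, 29 by DESeq2, 68 in the 69-library fit, 75 with the block added, 7 with late Hot libraries alone, and 5 to 16 without 1 library. For SS minus D1, 31 calls became 177, 48, 65, 64 and 17 in the same order, 19 without SBxSB Ambient 1 and 3 of SS, and 13 to 48 without 1 library. SS minus larvae gave 1341 to 2010 calls and larvae 3560 to 3908 without 1 replicate. The log2 difference of the summed models low in SED was -1.55 with a 4-fold list and -3.79 to -3.29 without 1 library. The settings without SBxSB Ambient 1 and 3 and with late Hot libraries for SED and D1 were chosen after seeing the data.

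For the named models that passed the low-count limit, no difference changed its sign in the alternatives run, which do not include the fits of single crosses; Amillepora12232-RA, Amillepora13084-RA and Amillepora07953-RA had no such values. Amillepora03350-RA, Amillepora09062-RA and Amillepora24890-RA were called in all 29 alternatives, and Amillepora04293-RA in all but the early block alone. With the block as a term Amillepora13447-RA was not called (log2 change 1.14). With the larval replicate number as a replicate block, larvae gave 4746 calls. Larval libraries of different groups with the same replicate number did not deviate together (median correlation -0.01 over 45 pairs, -0.10 to 0.08). No paired analysis was possible because the numbers of the juvenile libraries only name samples. Depth of 228646 counts in the smallest library limits what can be seen in models of a few counts.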
